A study of Rattus norvegicus with 18 samples.

Results

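The levels of 10 genes of the endothelial barrier were followed across the rat hypothalamus arrays. They were chosen by name: Cldn5, Ocln, Tjp1 and F11r of the tight junction, Pecam1 and Flt1 of the endothelial surface, the transporters Slc2a1 and Abcb1a, and the leukocyte adhesion molecules Icam1 and Vcam1. Every array probe whose accession mapped to one of them was kept, which gave 16 probes for 10 of the 16665 named genes on the array. Flt1 had 4 probes, Ocln had 3, F11r had 2 and the other members had 1 each.

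The series compared 3 groups of 6 male Wistar rats, which were 5 weeks old at the start and 9 weeks old at sampling. The control animals were not restrained and had no access to a wheel. Stress animals underwent restraint sessions of 1 to 1.5 h, 5 times weekly, over 3 weeks. The third group received identical restraint and in addition a running wheel for 4 weeks, from 1 week ahead of the first session, and no group ran without stress. Each hypothalamus was hybridised to its own 1-colour Agilent array, and the samples are whole dissected tissue, so endothelial RNA is a part of each one.

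The blood-brain barrier is formed by endothelial cells of brain capillaries, which tight junctions seal together and which carry nutrients by selective transporters. Claudins and occludin span the membrane in the junction, ZO-1 ties them to the cytoskeleton, and efflux pumps return many drugs to the blood. In inflammation the same cells display adhesion molecules that hold leukocytes. The hypothalamus borders on regions with leaky, fenestrated capillaries, where this barrier is relaxed.

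The sequences upstream of 4 members are shown because their values carry the results. Ocln and Abcb1a are the members that passed a test. Cldn5, Flt1 and Abcb1a were picked for pairwise Pearson's r of 0.60 to 0.68 from rat to rat. Genes outside the members correlated with Cldn5 more closely, up to 0.88. Each sequence is the 250 bases before the RefSeq start of the gene in GRCr8, read 5′ to 3′ on the gene's strand. Capitals mark matches to the motifs listed next. The windows are chr11:95718599-95718848 on the minus strand, chr12:12333180-12333429 on the plus strand, chr4:26397649-26397898 on the minus strand and chr2:33441199-33441448 on the minus strand.
Cldn5: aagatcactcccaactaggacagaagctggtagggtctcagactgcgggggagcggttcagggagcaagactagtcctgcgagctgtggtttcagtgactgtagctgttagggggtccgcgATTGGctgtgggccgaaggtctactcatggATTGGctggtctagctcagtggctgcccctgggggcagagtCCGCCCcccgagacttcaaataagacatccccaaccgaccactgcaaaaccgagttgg
Flt1: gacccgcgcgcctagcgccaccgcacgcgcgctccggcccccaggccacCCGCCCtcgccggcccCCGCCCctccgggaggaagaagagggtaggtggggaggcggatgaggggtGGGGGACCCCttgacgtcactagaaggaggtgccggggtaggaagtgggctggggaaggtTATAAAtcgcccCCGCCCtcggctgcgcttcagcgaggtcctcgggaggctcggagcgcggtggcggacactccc
Abcb1a: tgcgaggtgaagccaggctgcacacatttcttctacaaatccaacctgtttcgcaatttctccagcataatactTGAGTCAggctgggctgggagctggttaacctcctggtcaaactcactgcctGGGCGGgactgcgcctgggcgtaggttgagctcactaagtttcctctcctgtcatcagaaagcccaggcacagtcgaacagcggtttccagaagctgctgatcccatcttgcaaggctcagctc
Ocln: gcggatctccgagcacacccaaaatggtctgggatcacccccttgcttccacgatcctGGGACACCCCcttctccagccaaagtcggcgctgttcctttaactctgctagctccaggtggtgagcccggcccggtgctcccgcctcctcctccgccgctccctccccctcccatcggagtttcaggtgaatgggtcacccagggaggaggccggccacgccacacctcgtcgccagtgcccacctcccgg

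Motifs were searched on both strands: the Sp1 GC box as GGGCGG, the CCAAT box as CCAAT, the TATA box as TATAAA, the AP-1 site as TGANTCA, the glucocorticoid half-site as AGAACA, the TCF/LEF site as CTTTGA, and the NF-kB consensus by name. No match of one motif overlapped another in the windows shown. The Cldn5 window held 1 GC box and 2 CCAAT boxes, and the Abcb1a window held 1 GC box and 1 AP-1 match. The Flt1 window held 3 GC boxes, 1 TATA box and 1 NF-kB match, while the Ocln window held an NF-kB match alone. Of the 33469 rat windows of this length, 30.5% held a GC box, 34.0% a CCAAT box, 12.9% a TATA box, 6.34% an AP-1 match, 17.5% a glucocorticoid half-site, 13.9% a TCF/LEF match and 3.54% an NF-kB match. RefSeq windows were matched for 9 of the 10 members, all but Pecam1. Among the members not printed, F11r held 1 GC box, 2 CCAAT boxes and 1 AP-1 match, Slc2a1 held 3 GC boxes, and Icam1 held 2 GC boxes and 1 TATA box. Vcam1 held 2 overlapping TATA boxes and 1 NF-kB match, and Tjp1 held 1 TCF/LEF match. No glucocorticoid half-site lay in any of the 9 windows, which describes these letters only.

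Levels are log2 processed signal minus the 75th percentile of the same array, so 0 is the level of that percentile. Probes differ in how strongly they bind, so levels were compared between rats and never between probes. All 16 probes were well above background on every control and every stress-with-exercise array, and only Flt1 probe 4 missed it on 1 of the 6 stress arrays. The arrays lay on 5 slides, and the slides divide along the groups. All 6 control rats and stress rats 1 to 4 were hybridised on slides 1 to 3, and the other rats on slides 4 and 5. Slide 4 held stress rats 5 and 6 with exercise rats 1 and 2, and slide 5 held exercise rats 3 to 6 alone. The stress group is therefore the only one on both slide sets, and its values are given by slide set wherever they bear on a result. Slides 2 and 4 were scanned on 1 day and slides 1, 3 and 5 on another, so for the stress rats slide and scan day cannot be told apart. From 63.6% to 77.7% of probes were well above background on an array, and no spot was saturated.

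None of the 10 members passed the test between stress and control. Of 31283 probes tested with limma, 0% (0 probes) had an adjusted p under 0.05 between stress and control, against 3694 probes and 3 member probes at an unadjusted p under 0.05. Between stress with exercise and stress, 3.75% of all probes passed (1.17% higher and 2.58% lower) and 0 of the 16 member probes, with 4 member probes at an unadjusted p under 0.05. Between stress with exercise and control, 26.1% of all probes passed, 11% higher and 15.1% lower, and 2 of the 16 member probes, both lower. Those were 1 of the 3 Ocln probes and the Abcb1a probe. The members' share, 12.5%, lay below the share of all probes. Exercise went with slides 4 and 5, and with the slide set in the fit the calls over all probes went from 1173 to 5 against stress and from 8152 to 7 against control. Over the brightest probe of each gene, the members' median difference was -0.05 for stress against control, 0.06 for exercise against stress and 0.05 for exercise against control, beside 0.0037, 0.03 and 0.03 over all tested genes. In whole tissue, fewer endothelial cells and less RNA per cell cannot be told apart.

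**Figure D1:**
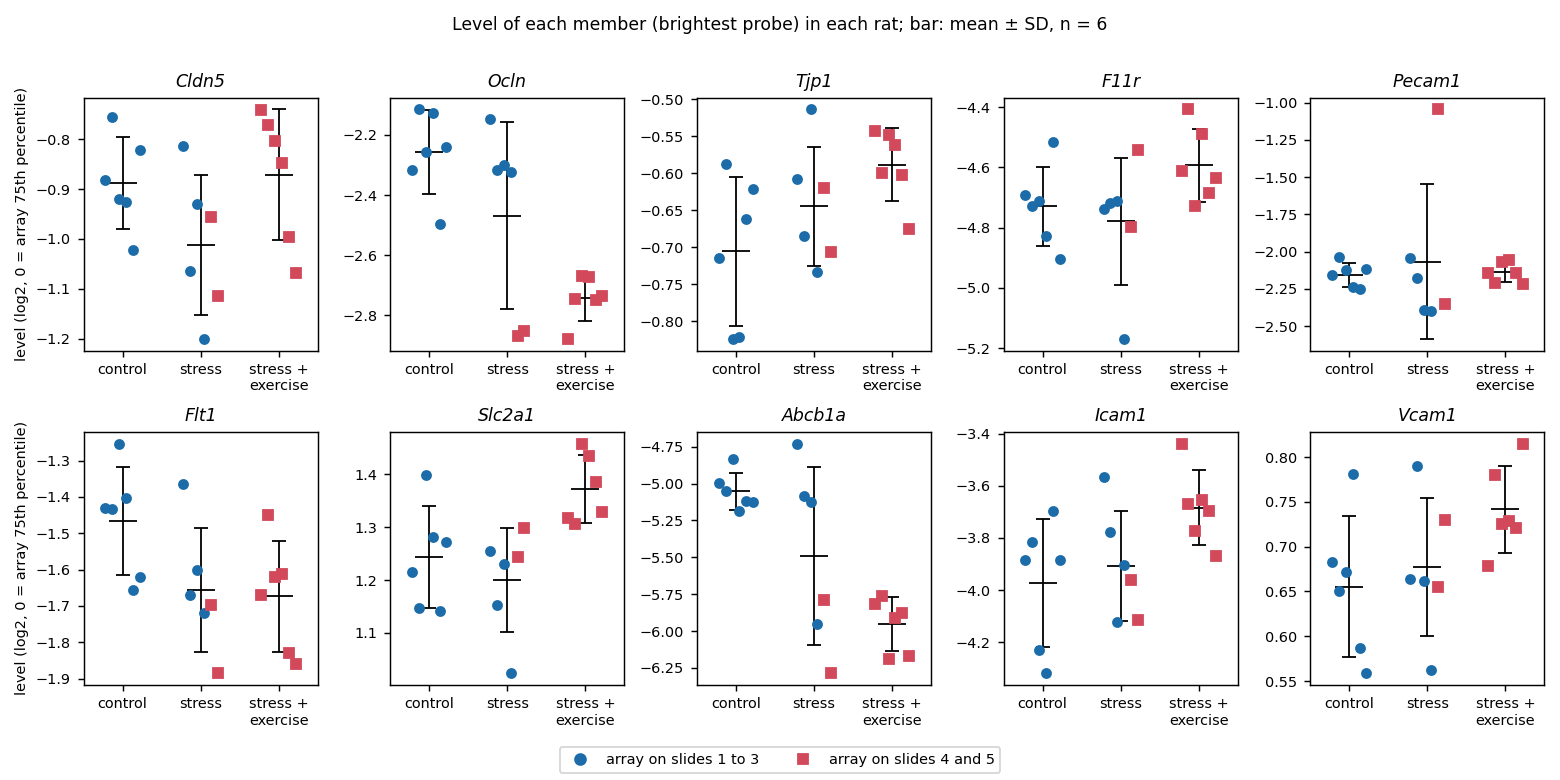
Level of the brightest probe of each member (log2, 0 is the array's 75th percentile) in each rat by group, with the mean and SD of 6 rats; circles are arrays on slides 1 to 3 and squares arrays on slides 4 and 5. Ocln and Abcb1a are low on the squares of both groups, and Pecam1 has 1 high stress array at -1.05.

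Occludin, encoded by Ocln, is a membrane protein of the tight junction. Its brightest probe read -2.32, -2.12, -2.26, -2.13, -2.50 and -2.24 in control rats 1 to 6. The stress rats read -2.15, -2.32, -2.30, -2.32, -2.87 and -2.85, and the rats with exercise read -2.88, -2.75, -2.67, -2.67, -2.75 and -2.74. Every rat with exercise lay below every control rat, and stress rats 5 and 6 lay among the rats with exercise while stress rats 1 to 4 lay among the controls. Control and exercise groups failed to overlap for 17.1% of all probes tested. The difference from control was -0.48 (SE 0.11), or 1.40-fold lower, with a limma adjusted p of 0.00508.

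The stress rats of slides 3 and 4 had the same treatment, and their Ocln levels differed too. The difference of slide 4 from slide 3 was -0.59 (SE 0.07, limma adjusted p = 0.00637), in a comparison where 9.88% of all probes passed, 1.23% higher and 8.65% lower. On slide 4, stress rats 5 and 6 read -2.87 and -2.85 beside -2.88 and -2.75 in exercise rats 1 and 2. Once the slide set was a covariate, the exercise difference from control became 0.11 (SE 0.11, limma adjusted p = 0.832), and with the slide as a random block it was -0.42 (limma adjusted p = 0.0756). Within scan day 1 it was -0.53 (limma adjusted p = 0.0170) and within scan day 2 it was -0.49 (limma adjusted p = 0.00213). Ocln probe 2 differed from control by -0.19 (SE 0.07, limma adjusted p = 0.0684), with all 6 rats with exercise below the control mean. Ocln probe 3 differed by -0.03 (SE 0.12, limma adjusted p = 0.878), so the 3 probes of the gene did not give the same size of difference.

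Abcb1a encodes P-glycoprotein, the efflux pump of the capillary wall. Its probe read -5.00, -5.05, -4.83, -5.19, -5.12 and -5.12 in the control rats. Stress rats read -4.73, -5.08, -5.12, -5.95, -5.79 and -6.29, and rats with exercise read -5.82, -5.76, -6.19, -5.91, -5.88 and -6.17. The control rats and stress rats 1 to 3 were high, and stress rats 4 to 6 and all rats with exercise were low, with no overlap between control and exercise. The exercise difference from control was -0.90 (SE 0.20), or 1.87-fold lower, with a limma adjusted p of 0.00429.

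Stress rat 4, on slide 3, had an Abcb1a level like those of slides 4 and 5. The difference between stress arrays of slide 4 and slide 3 was -0.82 (SE 0.35, limma adjusted p = 0.218). With the slide set as a covariate, Abcb1a in rats with exercise differed from control by -0.08 (SE 0.29, limma adjusted p = 0.961), and with the slide as a random block by -0.75 (limma adjusted p = 0.148). Within scan days 1 and 2 the difference was -0.72 (limma adjusted p = 0.0238) and -1.01 (limma adjusted p = 0.0372). Its processed signal ran from 26.9 to 79.0, which is dim but was well above background on all 18 arrays. Within slide 4 alone, stress rats 5 and 6 read -5.79 and -6.29 and exercise rats 1 and 2 read -5.82 and -5.76. The values of both groups overlapped there, and the mean with exercise was not the lower one. Scan day 1 also set stress rats 5 and 6 against control rats 3 to 6, and there stress differed from control by -0.97 for Abcb1a (limma adjusted p = 0.00955) and by -0.58 for Ocln probe 1 (limma adjusted p = 0.0148). Within slides 1 to 3 the same differences were -0.17 (limma adjusted p = 0.856) and -0.01 (limma adjusted p = 0.979).

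**Figure D2:**
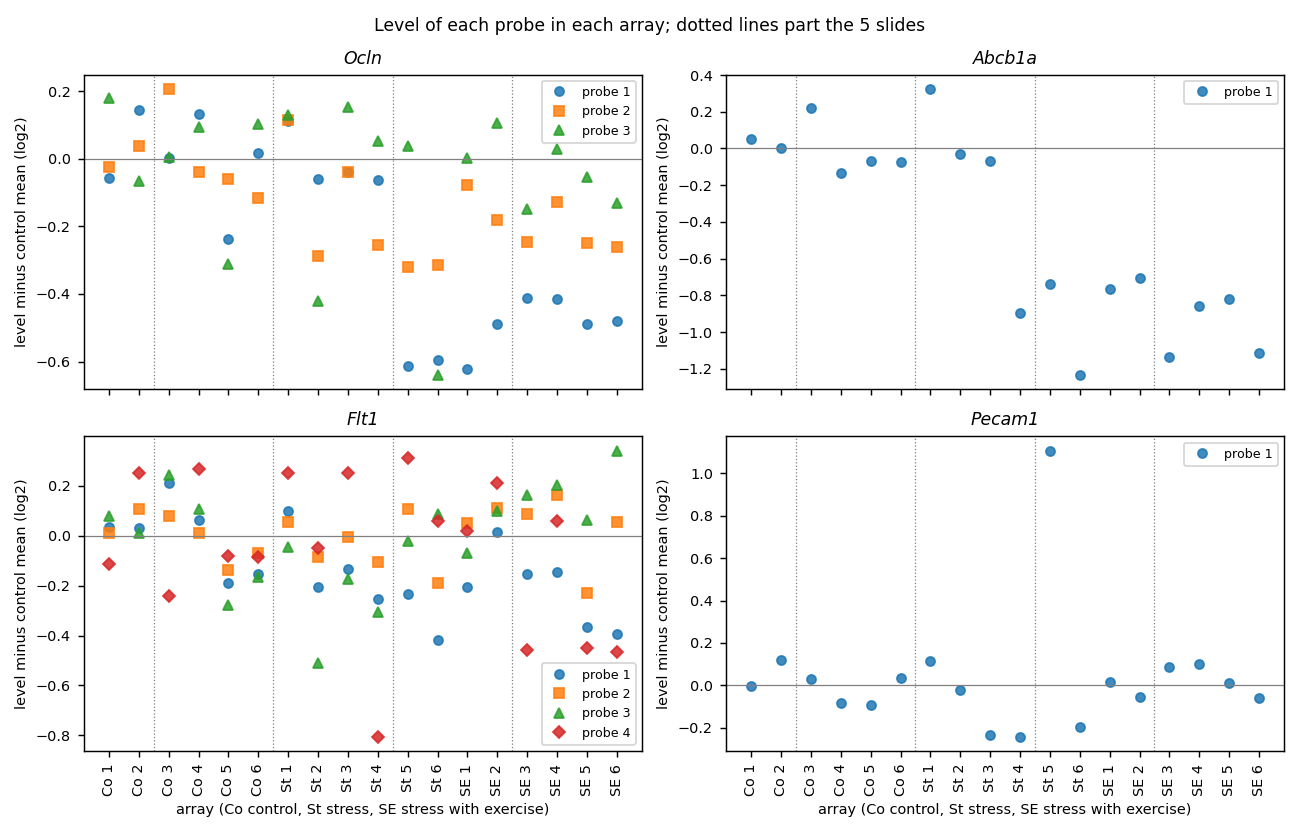
Level of each Ocln, Abcb1a, Flt1 and Pecam1 probe minus its control mean (log2) on the 18 arrays in slide order, with dotted lines between slides. Ocln probe 1 steps down between slides 3 and 4, inside the stress group, and Abcb1a is already low in stress rat 4.

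The other tight junction members passed no test. Cldn5, the claudin that defines the brain endothelial junction, ranged from -1.02 to -0.76 in control rats, from -1.20 to -0.81 in stress rats and from -1.07 to -0.74 in rats with exercise. All 3 groups overlapped. Cldn5 differed by -0.12 (SE 0.07, limma adjusted p = 0.487) between stress and control, with a 95% interval of -0.27 to 0.02. It differed by 0.14 (SE 0.07, limma adjusted p = 0.231) between exercise and stress, and by 0.02 (95% interval -0.13 to 0.17, limma adjusted p = 0.894) between exercise and control.

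Tjp1, which encodes the scaffold ZO-1, ranged from -0.82 to -0.59 in control rats, from -0.73 to -0.51 in stress rats and from -0.68 to -0.54 in rats with exercise. All 6 rats with exercise lay above the control mean, at a difference of 0.12 (SE 0.05, limma adjusted p = 0.0888). F11r encodes the junctional adhesion molecule JAM-A. Its brighter probe ranged from -4.91 to -4.52 in control rats, from -5.17 to -4.54 in stress rats and from -4.73 to -4.41 in rats with exercise, and the groups overlapped. The difference of F11r probe 1 from control was 0.14 with exercise (SE 0.09, limma adjusted p = 0.291). F11r probe 2 was more variable, with an SE of 0.25 and a difference of -0.03 (limma adjusted p = 0.948).

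Slc2a1 encodes GLUT1, the glucose carrier of the barrier. It read 1.22, 1.15, 1.40, 1.28, 1.14 and 1.27 in control rats, 1.25, 1.15, 1.23, 1.02, 1.24 and 1.30 in stress rats, and 1.32, 1.30, 1.46, 1.43, 1.39 and 1.33 in rats with exercise. Every rat with exercise lay above every stress rat, which held for 1 of the 16 member probes and, in either direction, for 1.48% of all probes. No member probe separated stress from control, which 0.783% of all probes did. The Slc2a1 difference between exercise and stress was 0.17 (SE 0.05, limma adjusted p = 0.0702), short of the threshold. It passed when stress rat 5 or stress rat 6 was left out (limma adjusted p = 0.0441 and 0.0314) and after normexp background correction (0.26, limma adjusted p = 0.0291). On slide 4, stress rats 5 and 6 read 1.24 and 1.30 beside 1.32 and 1.30 in exercise rats 1 and 2. Once the slide set was added to the fit, the Slc2a1 difference was 0.10 (SE 0.07, limma adjusted p = 0.896).

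The endothelial surface members did not pass either. Pecam1, the platelet endothelial adhesion molecule, ranged from -2.25 to -2.04 in control rats and from -2.21 to -2.05 in rats with exercise. Stress rats ranged from -2.40 to -1.05, the highest being stress rat 5, while the other stress rats lay between -2.40 and -2.04. Pecam1 differed by 0.09 between stress and control (SE 0.17, limma adjusted p = 0.874) and, when stress rat 5 was left out, by -0.12. Of the 8 blood cell markers tested, 7 lay within the range of the other arrays in stress rat 5 and Gp9 lay just below it, at -6.26. The part of blood cells in that value was not tested.

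Flt1 encodes VEGF receptor 1, a receptor for vascular growth factors. Its brightest probe ranged from -1.66 to -1.25 in control rats, from -1.89 to -1.36 in stress rats and from -1.86 to -1.45 in rats with exercise. Flt1 probe 1 differed from control by -0.19 with stress (SE 0.09, limma adjusted p = 0.416) and by -0.21 with exercise (SE 0.09, limma adjusted p = 0.0970). Probe 3 went the other way between exercise and stress, by 0.29 (SE 0.10, limma adjusted p = 0.0973), where probe 1 differed by -0.02. Probes 1 to 3 carry 1 RefSeq accession and probe 4 another, and no Flt1 probe passed in any of the 3 comparisons of groups.

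Icam1 and Vcam1 bind leukocyte integrins. Icam1 ranged from -4.32 to -3.70 in control rats, from -4.12 to -3.57 in stress rats and from -3.87 to -3.44 in rats with exercise, all 6 of which lay above the control mean. Its difference from control with exercise was 0.29 (SE 0.11, limma adjusted p = 0.0738). Once the slide set entered the model it was 0.48 (SE 0.20, limma adjusted p = 0.481). Vcam1 ranged from 0.56 to 0.78 in control rats, from 0.56 to 0.79 in stress rats and from 0.68 to 0.82 in rats with exercise. Its difference from control was 0.02 with stress (limma adjusted p = 0.881) and 0.09 with exercise (SE 0.04, limma adjusted p = 0.164). The 95% interval of the Vcam1 difference between stress and control ran from -0.07 to 0.11.

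**Figure D3:**
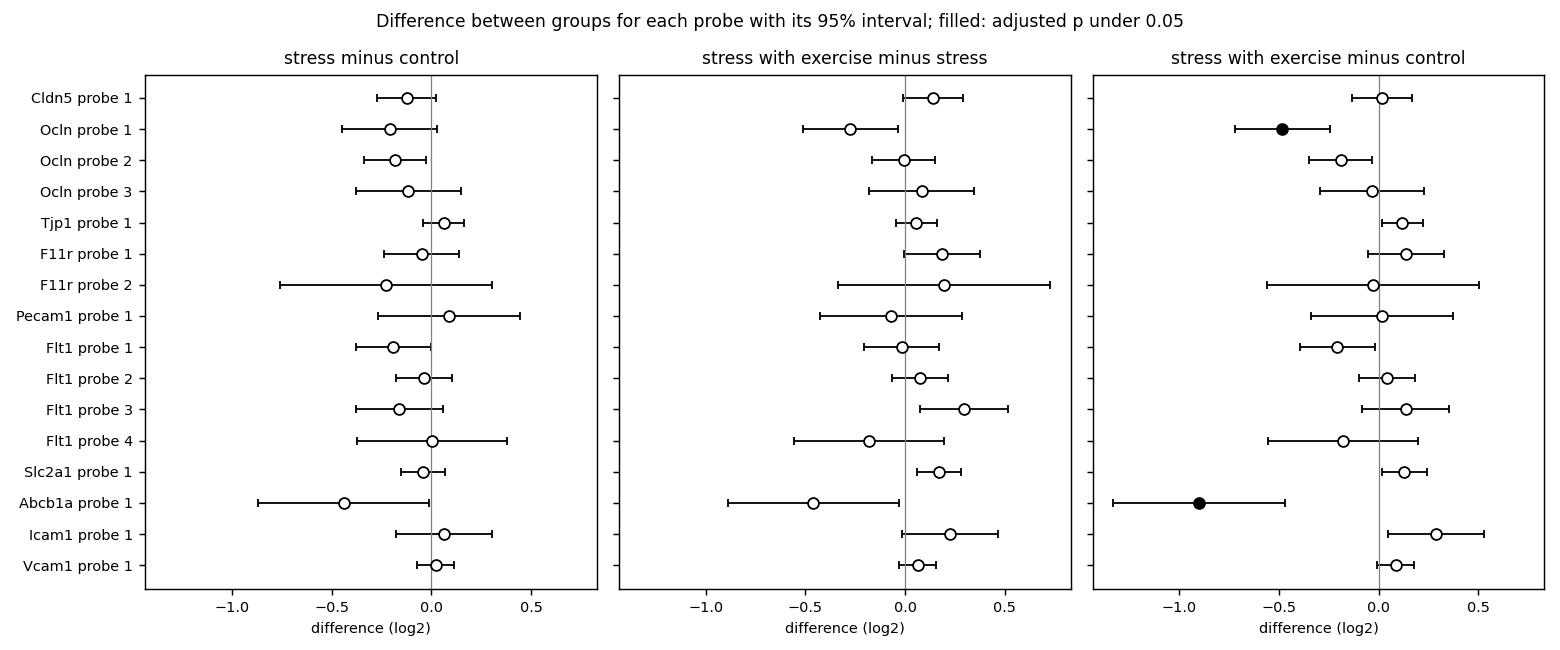
Difference between groups (log2) with its 95% interval for each of the 16 probes in the 3 comparisons; filled points have a limma adjusted p under 0.05. The filled points are Ocln probe 1 at -0.48 and Abcb1a at -0.90, both in stress with exercise minus control.

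Against stress alone, 4 member probes passed once stress rats 5 and 6 were both left out: Ocln probe 1 at -0.47, Abcb1a at -0.73, Flt1 probe 3 at 0.39 and Slc2a1 at 0.21. In that fit 7794 of all 31283 probes passed. The stress rats then all lay on slide 3 and the rats with exercise on slides 4 and 5. After normexp background correction 7 of the 16 member probes passed between exercise and control, beside 7742 of all 31283 probes. Ocln probe 2 (-0.21), Tjp1 (0.18), F11r probe 1 (0.14), Slc2a1 (0.25) and Icam1 (0.28) joined Ocln probe 1 and Abcb1a there.

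With the slide set as a covariate, 0 of the 16 member probes passed in any of the 3 comparisons, and 1 had an unadjusted p under 0.05 in each. Over all probes 1, 5 and 7 passed in stress against control, exercise against stress and exercise against control, while 2875, 1994 and 2905 had an unadjusted p under 0.05. Among the stress arrays, 1 of the 16 member probes (6.25%) passed between slides 4 and 3, Ocln probe 1, beside 9.88% of all probes.

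**Figure D4:**
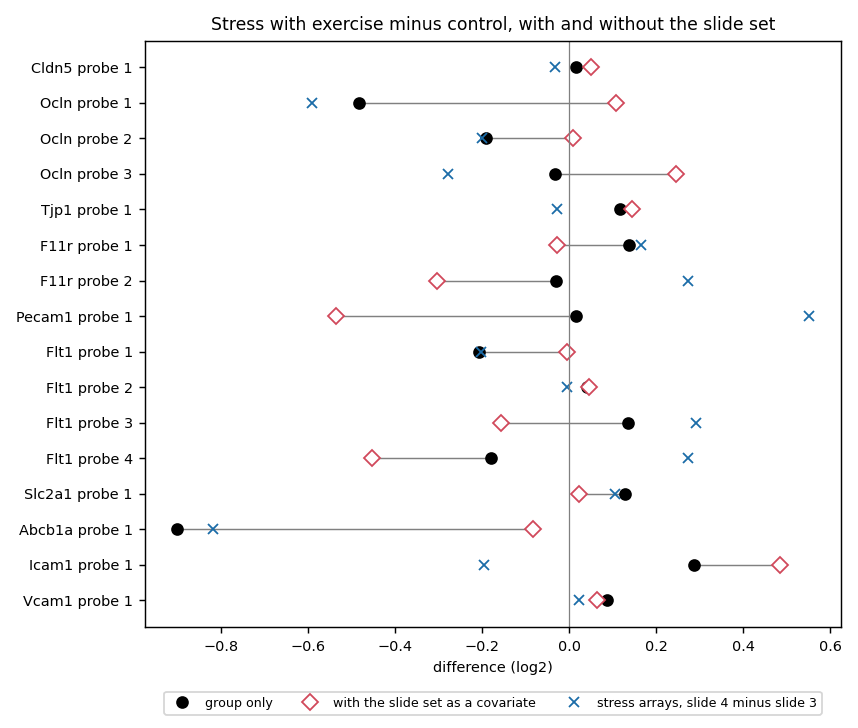
Difference between stress with exercise and control (log2) for each probe from the fit on group only (filled circles) and from the fit that adds the slide set (open diamonds), beside the difference between stress arrays of slides 4 and 3 (crosses). For Ocln probe 1 and Abcb1a the circles and crosses lie on the same side of 0, and the diamonds lie at 0.11 and -0.08.

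From rat to rat, after the mean of each group on each slide set was removed, the members varied together only in part. Over 18 arrays, Pearson's r for the 45 pairs of members ran from -0.47 to 0.68 with a median of 0.25, and 6 pairs exceeded 0.5. Cldn5 correlated with Flt1 at 0.68, with Abcb1a at 0.65 and with Tjp1 at 0.64. Tjp1 and Vcam1 gave the lowest value, -0.47. These correlations share the array and its scaling and are given as descriptions. With the means removed, stress rats 5 and 6 deviate equally in opposite directions, so fewer than 18 independent values lie behind each r. Of 12974 genes, those most like Cldn5 were Oser1 at 0.88, Fam110d at 0.87, Dbndd2 at 0.87, Mindy2 at 0.86 and Msra at 0.83. Those most like Slc2a1 were Rsbn1l at 0.89, Deaf1 at 0.82, Adgrl4 at 0.81, Prom1 at 0.80 and Adgrf5 at 0.80.

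Of the other junction genes, 7 of 25 passed between exercise and control, a share near that of all genes. Each gene is represented by its brightest tested probe, and 26.5% of all 13045 tested named genes passed between exercise and control, 15.3% higher and 11.2% lower. Of the 7 junction genes 5 rose and 2 fell, and the list had a median difference of 0.06 beside 0.03 over all genes. Jup, which encodes plakoglobin, rose by 0.31 (SE 0.06, limma adjusted p = 0.00258). Amotl2 rose by 0.13 and Ctnnb1, which encodes beta-catenin, by 0.19. The gap junction gene Gja1 fell by 0.19 and Cldn3 fell by 0.56. Against stress alone, Jup rose by 0.26 (limma adjusted p = 0.0405), where 3.40% of genes passed.

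Transporters of the barrier passed in 2 of 24 cases against control, 1 higher and 1 lower, with a median of 0.10, where 26.5% of all genes passed. Lrp1, a receptor that carries amyloid-beta and lipoproteins, rose by 0.39 (SE 0.07, limma adjusted p = 0.00135). Against stress alone 0 of 24 passed, the smallest adjusted p being 0.0545 for Lrp1 at 0.26 and 0.0572 for Tfrc, the transferrin receptor, at 0.19.

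Of 29 genes that mark endothelial identity, 7 rose and 1 fell between exercise and control, with a median of 0.05. Over all tested named genes 15.3% rose and 11.2% fell, and with the slide set in the fit 0 of the 29 passed. The endothelial nitric oxide synthase gene Nos3 rose by 0.22 (SE 0.05, limma adjusted p = 0.00248), Mcam by 0.24, the receptor gene Acvrl1 by 0.34 and the transcription factor gene Sox18 by 0.24. Vwf, which encodes von Willebrand factor, fell by 0.33 (SE 0.11, limma adjusted p = 0.0284). Against stress alone Acvrl1 rose by 0.36 (limma adjusted p = 0.0408), where 3.4% of all genes passed. The mean level of the 29 genes ran from -2.48 to -2.37 in control rats, from -2.71 to -2.42 in stress rats and from -2.46 to -2.30 in rats with exercise, and the ranges overlapped.

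Of 30 angiogenic and Wnt genes, 3 rose and 1 fell against control, with a median of 0.04, where 26.5% of all genes passed. Ptch1, the hedgehog receptor, rose by 0.35, Wnt7b, a ligand that maintains the barrier, by 0.33 and Vegfb by 0.17, while the Notch ligand gene Dll4 fell by 1.09 (SE 0.28, limma adjusted p = 0.00876). Against stress alone Wnt7b rose by 0.45 (limma adjusted p = 0.0369) and Ptch1 by 0.29 (limma adjusted p = 0.0464), where 3.4% of all genes passed. Of 26 leukocyte adhesion genes, 4 rose and 1 fell against control, with a median of 0.01, beside the same 26.5% of all genes. Icam5, an adhesion molecule of neurons, rose by 0.21, Cd99 by 0.19, the NF-kB subunit gene Rela by 0.19 and Cd47 by 0.24, and the myeloid integrin gene Itgam fell by 0.40. Against stress alone 0 of the 26 passed, and the smallest adjusted p were 0.0811 for Itgam at -0.27 and 0.103 for Cd99 at 0.15.

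In these 5 lists limma called 0 genes between stress and control, and 15 of their 134 different genes had an unadjusted p under 0.05. Among the smallest p of each list were those of the gap junction gene Gja4 (-0.23, adjusted p = 0.328), the zinc carrier gene Slc39a10 (-0.10, 0.377), and Clec14a (-0.22, 0.301) and Ets1 (-0.17, 0.304). In the last lists they were those of the Notch target Hey2 (-0.28, 0.346) and Notch4 (-0.08, 0.370), and of Icam5 (0.12, 0.363) and Rela (0.12, 0.462). Of the genes in these lists, 0 passed in any comparison once the slide set was in the fit.

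**Figure D5:**
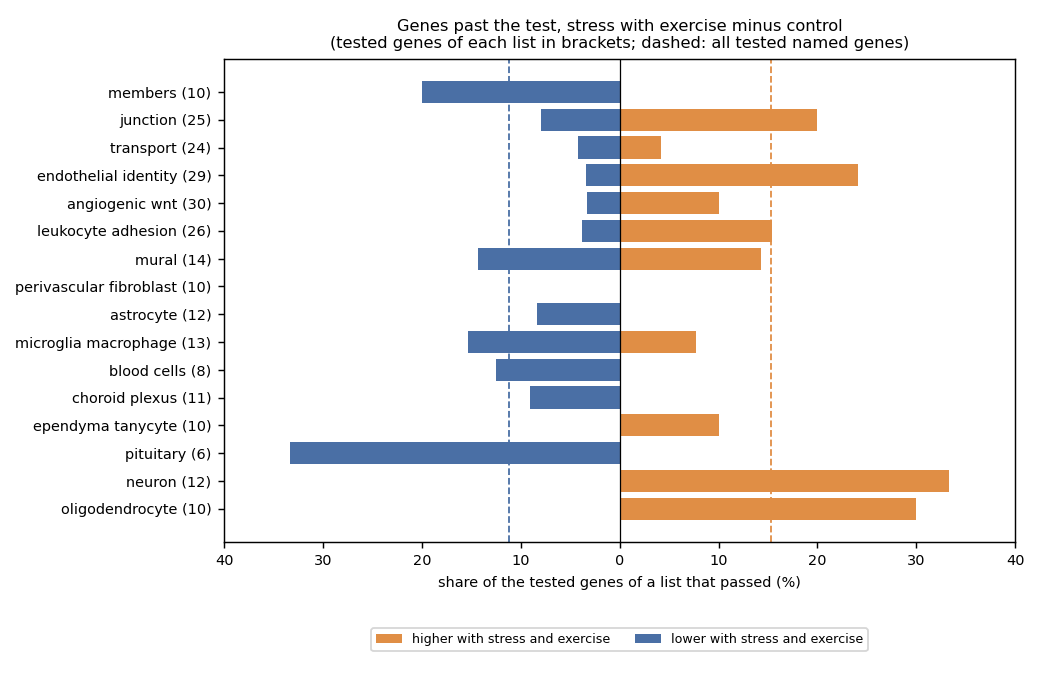
Share of the tested genes of each list (%) that passed between stress with exercise and control, higher to the right and lower to the left; dashed lines are the shares of all tested named genes, 15.3% and 11.2%. The members have 2 of 10 lower and none higher, and 7 of 29 endothelial identity genes were higher.

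Of 106 tested marker genes of other cell types, 20 passed between exercise and control, or 18.9% beside 26.5% of all genes. With the slide set in the fit 0 of the 106 passed in any comparison. Between stress and control limma called 0 of them, and 8 had an unadjusted p under 0.05. Of 14 mural cell genes, 2 rose and 2 fell: the pericyte genes Cspg4 (0.26) and Rgs5 (0.29) were higher, and Notch3 (-0.47) and the smooth muscle actin gene Acta2 (-0.62) were lower. Their mean level ran from -3.72 to -3.28 in control rats, from -3.83 to -3.28 in stress rats and from -3.56 to -3.30 in rats with exercise. Against stress alone, the mural gene Abcc9 rose by 0.33 and the microglial gene Tmem119 by 0.26. Microglial genes gave 1 higher, Tmem119 at 0.27, and 2 lower of 13, Itgam at -0.40 and Cx3cr1 at -0.60. Of 6 tested pituitary genes 2 were lower, Pou1f1 at -0.92 and Pitx1 at -0.57, and of 11 choroid plexus genes Aqp1 was lower at -0.68. The mean choroid plexus level ran from -4.67 to -3.73 in control rats, from -5.01 to -3.23 in stress rats and from -4.74 to -4.51 in rats with exercise. The mean pituitary level ran from -4.21 to -2.45 in control rats, from -4.41 to -2.15 in stress rats and from -4.35 to -2.83 in rats with exercise. Among neuronal genes 4 of 12 rose, Syn1 by 0.24, Nefl by 0.37, Gad1 by 0.17 and Rbfox3 by 0.15, and among oligodendrocyte genes 3 of 10 rose, Mag by 0.36, Cnp by 0.22 and Mog by 0.22. Gp9 of the 8 blood cell genes fell by 0.52, Gja1, which the junction list also holds, was the 1 of 12 astrocyte genes that passed, Mia rose by 0.39 among 10 ependymal and tanycyte genes, and 0 of 10 perivascular fibroblast genes passed.

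The fibroblast and pituitary lists stood apart in single rats, among them the stress rats of slide 4. The mean fibroblast level was -3.17 and -3.00 in stress rats 5 and 6, against -2.19 to -1.71 in stress rats 1 to 4, and the mean pituitary level was -4.41 in both, against -2.50 to -2.15. Control rats 3 and 4 were low as well, at -3.20 and -3.33 for fibroblast genes and -3.62 and -4.21 for pituitary genes. In those control rats Ocln probe 1 read -2.26 and -2.13 and Abcb1a read -4.83 and -5.19. Exercise rats 3 and 6 read -2.65 and -2.84 for fibroblast genes and -4.35 and -4.28 for pituitary genes. Their Ocln probe 1 read -2.67 and -2.74 and their Abcb1a read -6.19 and -6.17. The fibroblast level ran from -2.84 to -1.74 in rats with exercise. The part of these cell types in the members' differences was not tested.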

How the data were processed

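Hypothalamic RNA of 18 rats (6 per group) was labelled with Cy3 and hybridised to 1-colour Agilent arrays, 1 per rat. The deposited values are processed signal intensity per spot from Agilent Feature Extraction, version 12.1.0.3 per the file headers and 9.1 per the submitters' processing notes. The authors' deposited series matrix holds the same intensity multiplied by 1 constant per array. Of 62976 spots, 58717 were not controls. Outlier spots (297 to 580 an array) were left out, spots of a probe were averaged, and log2 intensity was set relative to the array's 75th percentile over non-control spots. Of 45598 probes, 21220 had 1 symbol through their accession and 24378 had none. Probes well above background on at least 5 of 6 arrays of a group were tested (31283) with limma 3.58.1 in R 4.3.3, group only, two-sided, Benjamini-Hochberg over all of them, at an adjusted p of 0.05. The fit was checked on simulated data that held no slide effect, so the check does not bear on exercise going with slides 4 and 5. Normexp used median spot signals with an offset of 50. Samples of the same number did not deviate together (18 pairs, r -0.25 to 0.19, 4 over 0.1), so the main fit has no replicate block.

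All members and every probe of each are reported. From each other list, up to 4 genes per direction with the smallest adjusted p among those past the threshold were named, or else the 2 of smallest p, and at most 3 per marker list. The 5 genes most like Cldn5 and Slc2a1 were taken by Pearson's r. Members and lists were chosen with earlier results of these data known. The number of arrays limits the precision. Promoter windows are RefSeq's, in GRCr8. Some genes that this rule would name are not reported here.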

Additional observations from a re-analysis of the deposited data

Results flagged for a closer look

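In 48 sets of 6 arrays (16 probes in 3 groups), 5 held an array far from the others by Dixon's criterion, which chance alone gives in about 1 set in 20. Pecam1 read -1.05 in stress rat 5, against -2.40 to -2.04 in the other stress rats. F11r probe 2 read -6.57 in stress rat 2, against -5.99 to -5.67 in the others, and -6.71 in exercise rat 5, against -5.80 to -5.45. Flt1 probe 2 read -3.66 in exercise rat 5, against -3.38 to -3.27. Flt1 probe 4 read -7.38 in stress rat 4, against -6.62 to -6.26, and was not well above background on that array.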

How the results depend on the processing

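Neither Ocln probe 1 nor Abcb1a kept its call between exercise and control in any fit that included the slide. With the slide as a random block the differences were -0.42 and -0.75, and with scan day and slide set as covariates Ocln probe 1 was -0.0071. Every other setting, leaving out 1 rat at a time included, kept both calls. The widest errors were those of the dim probes F11r probe 2 (SE 0.25) and Abcb1a (SE 0.20). The replicate numbers do not pair the rats: with a replicate block, 0, 2 and 7105 probes and 0, 0 and 5 member probes passed in stress against control, exercise against stress and exercise against control.

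Between stress and control 0 probes passed, against 2 after quantile normalization, 1 with the slide set as a covariate, 467 with scan day as a block, 16 with scan day and slide set, 3747 within scan day 1, 1 with an intensity trend and 2 without stress rats 5 and 6. Within scan day 1, 2 member probes passed, Ocln probe 1 (-0.58) and Abcb1a (-0.97). That day's stress rats all lay on slide 4. Between exercise and stress 1173 probes passed limma's test, against 2 with no filter on dim probes, 5 with the slide set, 0 (3478 at an unadjusted p under 0.05) with the slide as a random block, 3109 with scan day as a block, 3 with scan day and slide set, 3 within slides 4 and 5, 0 (3684 unadjusted) within scan day 1, 7599 within scan day 2, 0 (6538 unadjusted) with only those groups' arrays, 2191 with an intensity trend and 7794 without stress rats 5 and 6. Member probes passing there were 1 after normexp (beside 1519 of all probes), 4 within scan day 2, 1 with an intensity trend and 4 without stress rats 5 and 6. Between exercise and control 8152 probes passed, against 5169 without scaling, 7 with the slide set, 1758 with the slide as a random block and 3 with scan day and slide set. Member probes passing there were 2, against 7 after normexp (beside 7742 of all probes). They were 0 with the slide set, with the slide as a random block and with scan day and slide set. Between stress rats of slides 4 and 3, 3092 probes passed, against 1937 with no filter. Some of these fits have fewer arrays or more terms, and the cause of a changed count was not tested for any of them.

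Leaving out 1 rat at a time gave 0 probes and 0 member probes between stress and control in all 18 fits. It gave 1 to 4633 probes and 0 to 4 member probes between exercise and stress, and 6979 to 8556 probes and 2 to 3 member probes between exercise and control. Between the slides of the stress rats it gave 1644 to 2754 probes and 1 to 2 member probes. Between exercise and stress, higher calls made up 31.3% of all calls and 2.4% without scaling. Between exercise and control they made up 42.1%, against 14% without scaling and 52.3% after quantile normalization. Between the slides they made up 12.5%, against 23.3% after quantile normalization and 26.7% after normexp.

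The sign of a member's difference turned in 120 of the 1996 member values under another setting, and the value is given in brackets. All but 3 of these had no call on either side. With quantile normalization it turned in stress against control for F11r probe 1 (0.0086), in exercise against stress for Ocln probe 2 (0.0058), in exercise against control for Ocln probe 3 (0.066) and F11r probe 2 (0.087), in slide 4 against slide 3 for Flt1 probe 2 (0.052). With normexp background correction it turned in stress against control for F11r probe 1 (0.019), Flt1 probe 2 (0.0060) and Flt1 probe 4 (-0.034), in exercise against stress for Flt1 probe 1 (0.0014) and Flt1 probe 4 (0.013), in exercise against control for Pecam1 (-0.022), in slide 4 against slide 3 for Cldn5 (0.036) and Tjp1 (0.047). With the slide set as a covariate it turned in stress against control for Pecam1 (-0.10) and Flt1 probe 4 (-0.088), in exercise against stress for Ocln probe 1 (0.12), Ocln probe 2 (0.13), Flt1 probe 1 (0.12) and Abcb1a (0.085), in exercise against control for Ocln probe 1 (0.11), Ocln probe 2 (0.010), Ocln probe 3 (0.25), F11r probe 1 (-0.028), Pecam1 (-0.53) and Flt1 probe 3 (-0.16). With the slide as a random block it turned in stress against control for Flt1 probe 4 (-0.032) and Icam1 (-0.011), in exercise against stress for Ocln probe 2 (0.078) and Flt1 probe 1 (0.092), in exercise against control for Ocln probe 3 (0.018) and Pecam1 (-0.080). With scan day and slide set as covariates it turned in stress against control for Pecam1 (-0.14), in exercise against stress for Ocln probe 1 (0.063), Ocln probe 2 (0.15), F11r probe 2 (-0.25), Flt1 probe 1 (0.16) and Abcb1a (0.15), in exercise against control for Ocln probe 2 (0.065), Ocln probe 3 (0.28), Pecam1 (-0.63), Flt1 probe 1 (0.075), Flt1 probe 3 (-0.32) and Abcb1a (0.052). Within slides 1 to 3 it turned in stress against control for Pecam1 (-0.10) and Flt1 probe 4 (-0.088). Within scan day 1 it turned in stress against control for F11r probe 1 (0.070), F11r probe 2 (0.28), Flt1 probe 3 (0.056) and Icam1 (-0.0053), in exercise against stress for Ocln probe 1 (0.049), Ocln probe 2 (0.19), Flt1 probe 1 (0.23), Flt1 probe 3 (-0.018) and Abcb1a (0.25), in exercise against control for Ocln probe 3 (0.082), F11r probe 2 (0.42) and Flt1 probe 4 (0.15). Within scan day 2 it turned in stress against control for Pecam1 (-0.15) and Flt1 probe 4 (-0.16), in exercise against stress for Ocln probe 3 (-0.054) and Pecam1 (0.13), in exercise against control for Cldn5 (-0.11), Pecam1 (-0.022) and Flt1 probe 2 (-0.040). Without stress arrays 5 and 6 it turned in stress against control for Pecam1 (-0.10) and Flt1 probe 4 (-0.088), in exercise against stress for Ocln probe 3 (-0.010) and Pecam1 (0.11). With the 75th percentile over probes well above background on all arrays it turned in exercise against stress for Ocln probe 2 (0.00092). Within slides 4 and 5 it turned in exercise against stress for Ocln probe 1 (0.12), Ocln probe 2 (0.13), Flt1 probe 1 (0.12) and Abcb1a (0.085). Without scaling it turned in exercise against control for Cldn5 (-0.019) and Pecam1 (-0.020), in slide 4 against slide 3 for Flt1 probe 2 (0.014). With the 75th percentile over probe means it turned in slide 4 against slide 3 for Flt1 probe 2 (0.015). LOO

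Where leaving out a rat turned the sign, the range over those fits was as follows. In stress against control, F11r probe 1 ran from -0.10 to 0.028, Pecam1 ran from -0.12 to 0.15, Flt1 probe 4 ran from -0.059 to 0.16, Icam1 ran from -0.0053 to 0.12 and Vcam1 ran from -0.0010 to 0.047. In exercise against stress, Ocln probe 2 ran from -0.035 to 0.052, Ocln probe 3 ran from -0.022 to 0.14, Pecam1 ran from -0.14 to 0.13 and Flt1 probe 1 ran from -0.063 to 0.041. In exercise against control, Cldn5 ran from -0.010 to 0.056, Ocln probe 3 ran from -0.10 to 0.0027, F11r probe 2 ran from -0.11 to 0.16 and Pecam1 ran from -0.0023 to 0.040. In slide 4 against slide 3, Cldn5 ran from -0.11 to 0.047, Ocln probe 3 ran from -0.62 to 0.060, Tjp1 ran from -0.072 to 0.015, Pecam1 ran from -0.10 to 1.20, Flt1 probe 2 ran from -0.15 to 0.14 and Vcam1 ran from -0.014 to 0.063.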
